A study of Caenorhabditis elegans with 2 samples.

Results

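Most weak peaks of a CEH-2-GFP ChIP-seq experiment lay outside coding sequence, but 2371 of 14205, or 16.7%, had their summit in a coding exon and away from promoters. These 2371 peaks are the subject here. They came from the peak list that the authors called on the reads of both replicates together, which held 16046 peaks. Of the 16022 on the nuclear chromosomes, 14205 shared no base with the authors' reproducible peaks, the set kept under the irreproducible discovery rate, and are called weak. A total of 3199 weak summits fell in a coding exon of a protein-coding gene, and 828 of them were left out because they also fell in a promoter window, which covered 1000 bp before and 200 bp after the start of any protein-coding transcript. The signal value, the location and the reproducible set chose the 2371 peaks, so these measures describe them and test nothing.

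The animals were Caenorhabditis elegans hermaphrodites of strain OP323, taken whole as late embryos 5 hours after synchronization by egg bleaching. The strain stably carries CEH-2 fused at its C-terminus to GFP and FLAG, and the description names an antibody against GFP, whereas the antibody field names ceh-2. There was 1 group of 2 biological replicates and no second condition. The tagged protein was therefore compared with no other genotype, and peaks of whole animals cannot be assigned to a cell type. Per-peak signal is the value of the authors' peak caller, on an unstated scale, and read depth is unknown. Intervals in brackets are 95% intervals, which cover the counting of peaks only.

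CEH-2 is a homeodomain transcription factor of the EMX and empty spiracles family. Homeodomains of this kind bind short AT-rich sites built on a TAAT core, mostly in promoters and other regulatory DNA. Peak lists made with loose thresholds are meant to include background, as input to the reproducibility step. Cuticle collagens, which appear often below, are short secreted proteins of repeated glycine-X-Y triplets that build the worm's exoskeleton. Glycine is encoded by GGN and proline by CCN codons, so their genes are rich in G and C.

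The sequences at the strongest collagen summits show that repeat directly. Each line below is 30 bases around the summit, read in frame on the coding strand, from RefSeq WBcel235 (the same assembly as ce11), with GGN and CCN codons in capitals.
col-36, chrII:7167931-7167960, minus strand: CCAGGACCACCAGGACCAgctGGAcaaCCA
col-97, chrIII:12993237-12993266, minus strand: CCTGGAttcCCAGGAcgcCCACCAgcagtg
col-106, chrIV:1460256-1460285, minus strand: GGAgcaCCAGGAtccCCAGGAGGACCAGGA
col-140, chrV:5836233-5836262, minus strand: aacGGAcgcaagGGACCACCAGGACCACCA
Strong summits in other genes are shown for contrast, marked the same way.
arr-1, chrX:952649-952678, plus strand: GGAcaactcaagcatgaggacactaattta
hda-10, chrII:13886576-13886605, plus strand: cttatcgacactGGGatcCCTgtggcggcg
pygo-1, chrIV:5085946-5085975, plus strand: CCGCCCGGAatgatgCCGCCCGGAatgatg
hsp-3, chrX:6089715-6089744, minus strand: cgcatgatcaacgatgccgagaagttcgct
The collagen lines consist largely of marked codons, 8 of 10 at col-36. The hsp-3 line has none, and the pygo-1 line is a tandem repeat.

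Signals of the 2371 peaks ran from 28.98 to 86.2 with a median of 36.0 and quartiles of 32.03 and 42.5. The authors' −log10 q-value ran from 0.018 to 2.67, with a median of 0.141. Its lowest value in the reproducible set was 2.31, so by this measure the strongest peaks overlapped that set. By signal, the strongest lay just under the reproducible set, whose lowest signal was 86.3. Inside that line were col-36 at 86.2, Y71G12B.31 at 84.2 and arr-1, an arrestin, at 82.7. Among the 9 reproducible summits that meet the same location rule, the weakest were col-42, another cuticle collagen, at 87.6 and pals-26 at 90.1. The largest of those 9 were pks-1, a polyketide synthase gene, at 177.5 and Y53F4B.9 at 157.1. Coding exons held 0.629% of reproducible nuclear summits against 16.7% of weak ones.

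A replicate match was counted when a peak shared at least 1 bp with a peak in that replicate's own list. Replicate 1 matched 71.5% of the coding-exon peaks (69.6 to 73.3) and replicate 2 matched 62.0% (60.1 to 64.0), beside 74.1% and 67.6% of all weak peaks. Both replicates matched 940 of the 2371, or 39.6% (37.7 to 41.6), beside 47.1% of all weak peaks. Another 755 were matched in replicate 1 alone, 531 in replicate 2 alone and 145, or 6.12%, in neither. The pooled list contains the reads of both replicates, so a match is no independent repeat. A window of peak width at any eligible coding base would touch a replicate 1 peak in 13.2% of places, a replicate 2 peak in 10.2% and both in 4.21%.

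Weak promoter peaks were matched in both replicates more often, at 52.9%, and the coding-exon share was lower by 13.3 percentage points (−15.7 to −10.9). Weak intron peaks stood at 42.8%, with a difference of −3.14 points (−5.72 to −0.544), and weak peaks in 3′ UTRs at 39.5%, with a difference of 0.111 points (−5.49 to 5.51). Coding-exon peaks also had lower signal, with a median of 36.0 against 39.0 in promoters. Within bands of signal, the gap was smaller. From 45 to 60, both replicates matched 83.7% of coding-exon peaks and 83.8% of promoter peaks. At 60 and above, all 88 coding-exon peaks and 98.9% of promoter peaks were matched. Below 32 the shares were 11.2% and 16.7%.

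**Figure D1:**
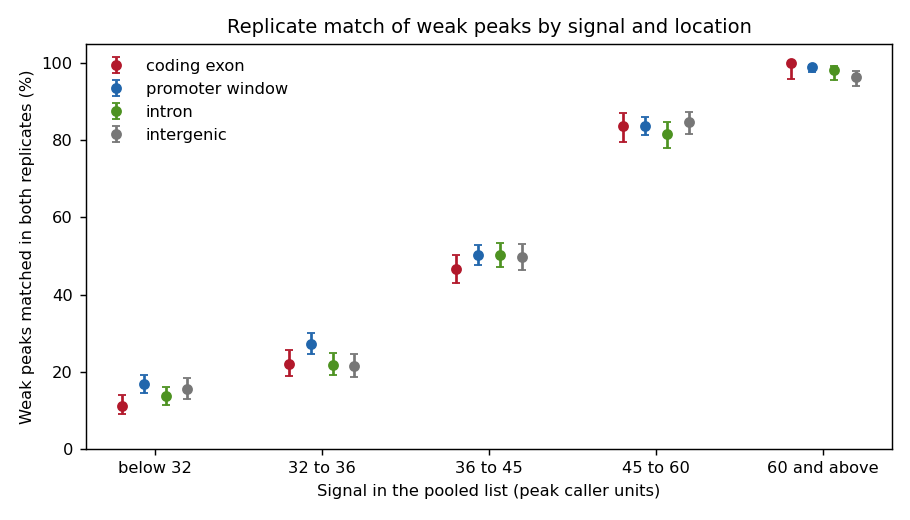
The vertical axis gives the percentage of weak peaks that shared at least 1 bp with a peak of each replicate, the horizontal axis bands of pooled signal in peak caller units, points the share for each location and bars 95% Wilson intervals over peaks. Shares rose with signal at all 4 locations, from 11.2% to 100% for coding exons, and the locations lay close together from a signal of 45 upward.

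The 15 strongest peaks had replicate signals that did not always rank them alike. Col-36 stood at 40.7 in replicate 1 and 42.5 in replicate 2. Arr-1 stood at 49.0 and 33.9. The Y39E4B.6 peak stood at 29.7 and 52.3. All 15 were matched in both replicates. Their hosts also included hda-10, a histone deacetylase (82.5), taf-4, a TFIID subunit (81.8), pygo-1, the Wnt pathway factor pygopus (81.2), dbn-1, a drebrin-like actin binder (80.0), hsp-3, an endoplasmic reticulum chaperone (77.6), and the zinc finger genes ztf-28 (77.3) and znf-207 (76.1).

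**Figure D2:**
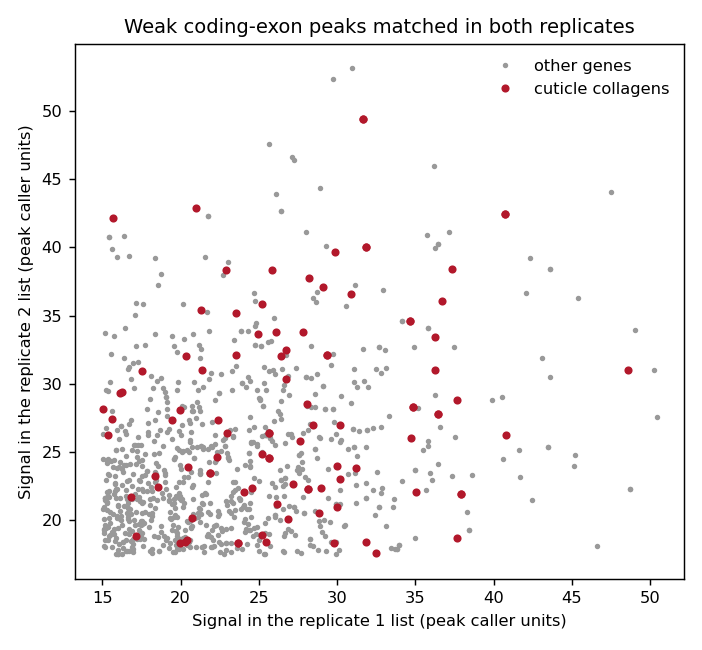
Each point is 1 of the 940 peaks matched in both replicates, with its signal in the replicate 1 list on the horizontal axis and in the replicate 2 list on the vertical axis, both in peak caller units. The 97 red points are peaks in cuticle collagen genes and the grey points those in other genes; the values scatter widely, and Y39E4B.6 lies near the top at 29.7 and 52.3.

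The peaks lay in 1949 of 19973 protein-coding genes, 9.76%. Most hosts, 1638, had 1 peak, 247 had 2, and 64 genes, 0.32%, had 3 or more. Long genes led by number: host genes had a median of 1.56 kb of coding sequence, the 64 genes with 3 or more had 4.93 kb, and all protein-coding genes had 0.99 kb. Close neighbours were not separate events in every case. A total of 200 peaks overlapped another of the 2371, with a median of 216 bp between the summits of such neighbours, and 170 and 166 peaks shared their replicate 1 or replicate 2 peak with another. Joined into runs, the 2371 became 2270, and 46 genes had 3 or more runs.

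The hosts with most peaks included genes of epidermal attachment, cell junctions and the extracellular matrix. The first was vab-10, a spectraplakin that ties the cytoskeleton to epidermal attachment structures, with 17 peaks in 14 runs over 23.4 kb of coding sequence. Its signals ran from 29.1 to 67.3, and 9 of the 17 were matched in both replicates. The strongest vab-10 peak stood at 35.8 in replicate 1 and 25.8 in replicate 2. Its first pair along the gene, 29.8 and 51.9, rests on a single peak of 20.9 in replicate 1 and a single peak of 24.5 in replicate 2.

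**Figure D3:**
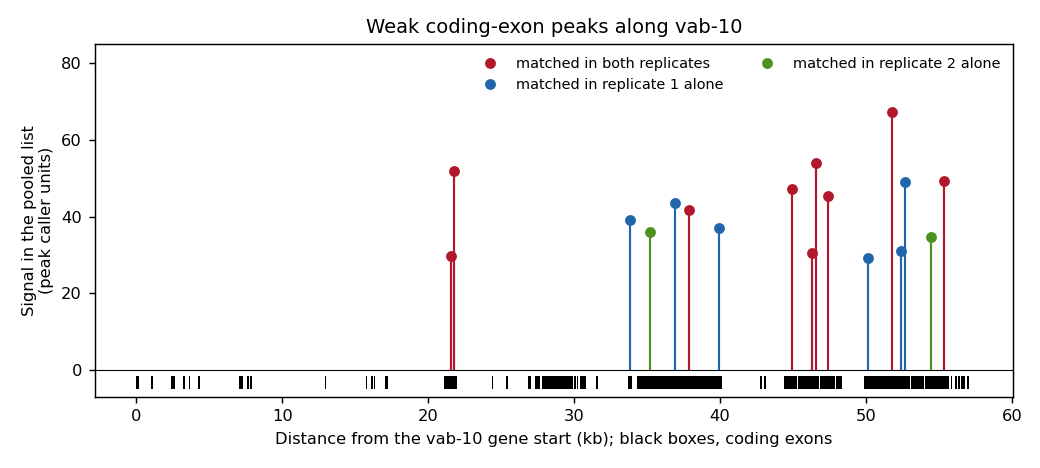
Each stem is a weak coding-exon peak of vab-10, placed by distance from the gene start in kb, with its pooled signal in peak caller units on the vertical axis, colour for the replicates that matched it and black boxes for coding exons. The 17 peaks lie from 21.5 kb onward, and the highest, at 51.8 kb, reached 67.3.

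Talin, tln-1, which links integrins to actin, had 7 peaks, all 7 matched in both replicates. Their pooled signals were 49.997, 48.8, 41.4, 44.8, 51.9, 53.7 and 52.2 along the gene. In replicate 1 they stood at 26.6, 26.1, 17.9, 19.6, 27.1, 32.3 and 27.8, and in replicate 2 at 18.8, 20.2, 23.6, 32.7, 26.3, 22.2 and 26.4. The 7 did not overlap each other, and no reproducible summit lay in the gene or its promoter window. Tln-1 was the host with most peaks in which every peak was matched, but the share matched rises with signal. Both replicates matched 46.7% of coding-exon peaks from 36 to 45 and 83.7% from 45 to 60, beside 39.6% of all 2371.

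Next came let-805, the epidermal matrix receptor myotactin, the cadherin gene cdh-12, and Y43F8B.3, with 6 peaks each. Both replicates matched 3, 2 and 5 of these. Joined into runs, let-805 kept 6, while cdh-12 and Y43F8B.3 had 4 each, fewer than the 5 runs of dys-1 and of clec-78 below. The genes with 5 were dys-1, the dystrophin gene, W05B2.2, and clec-78, a C-type lectin gene, and both replicates matched 1, 3 and 4. Among the genes with 4 were mlt-11, a protease inhibitor gene needed for molting, ajm-1, of the apical junction, unc-52, the perlecan of the basement membrane, and dpy-21, a histone demethylase of dosage compensation. Both replicates matched 1 of 4 in mlt-11, 3 of 4 in ajm-1 and unc-52, and all 4 in dpy-21. The remaining genes with 4 in the first 15 places were Y32H12A.8, sea-2, a zinc finger gene of sex determination, and Y53F4B.12, each with 3 of 4.

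The counts of some of these genes differed between the replicate lists, which gave 3091 and 2162 peaks in all. The same rule applied to the replicate 1 list gave 18 peaks in vab-10 and 9 in tln-1, and to the replicate 2 list 11 and 7. W05B2.2 had 2 in each replicate list against 5 in the pooled one, and ajm-1 had 5 and 2 against 4. Counts were equal in both lists for sea-2 and dpy-21, with 5 each, and for dys-1, with 3. Over all hosts, the replicate lists gave 2438 and 1830 genes with 865 shared, 35.5% of the first and 47.3% of the second.

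Among genes with at least 3 peaks, short genes led by peaks per kb of coding sequence. Aqp-2, an aquaporin, had 3 peaks in 0.877 kb, or 3.42 per kb, and rol-6, a cuticle collagen named for the rolling movement of its mutants, had 3 in 1.04 kb, or 2.87 per kb. Those rates use the whole coding sequence of the gene. Of the 64 genes, 42 had exactly 3 peaks, so the choice of genes by count itself puts short ones first. The rate over all coding sequence outside promoter windows was 0.1249 per kb. It involves no such choice and is no baseline for these genes. The aqp-2 peaks stood at 31.4, 56.0 and 47.2, and the last pair shared its peak in each replicate list. The rol-6 peaks stood at 36.1, 37.7 and 34.0 and drew on 2 peaks of replicate 1 and 1 of replicate 2. Other dense hosts were Y71G12B.31, ztf-6, hda-10, dyf-19, a gene of sensory cilia, col-87, polh-1, a translesion DNA polymerase gene, and lin-42, the worm's Period-like timing gene, at 1.65 to 2.36 per kb. None of the 3 polh-1 peaks was matched in replicate 2.

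The ceh-2 gene itself held 1 of the peaks, in a coding exon of 173 bp, with a pooled signal of 71.2 and replicate signals of 27.2 and 46.4. Its summit was 1198 bp from a reproducible summit. The gene also had 2 reproducible summits within it and 1 in its promoter window. The line is transgenic for tagged CEH-2, and whether transgene reads add to the signal at ceh-2 was not tested. The unc-119 gene held no weak coding-exon peak.

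Among 24 gene families grouped by symbol, cuticle collagens stood highest in share of peaks against share of coding length. They held 123 peaks in 59.2% of their 174 genes, against 9.76% of all genes that were hosts. That was 5.19% of the peaks on 0.655% of the eligible coding length, a ratio of 7.92 (6.66 to 9.40). Their median signal was 46.1, against 35.8 for the others. The list was made from col genes and some dpy, rol, sqt, bli, lon and ram symbols, and may leave out other collagens. The hosts rol-8, dpy-4 and rol-1 were not on it and count among the others. Both replicates matched 97 of the 123, or 78.9%, against 37.5% of the other 2248, a difference of 41.4 points (33.1 to 48.0). That comparison counts peaks, not runs: the 123 collagen peaks formed 108 runs, and overlapping peaks can share a replicate peak. The collagen hosts also recurred between lists: 82 collagen genes were hosts by both replicate lists, which was 79.6% of those by the replicate 1 list and 87.2% of the 94 by the replicate 2 list. Reproducible summits in promoter windows were found for 3 of the 174 genes, beside 1192 of 19973 protein-coding genes, 5.97%.

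Within bands of signal the comparison with other genes varied. The bands also count peaks rather than runs, so a weak peak can be matched through the replicate peak of a stronger neighbour. The col-97 peak at 28.98 carried the same replicate signals, 31.7 and 49.4, as its neighbour at 79.96. How far such pairs shape the shares and intervals below was not tested. From 45 to 60, 43 of 43 collagen peaks were matched in both replicates, against 81.7% of 338 others. From 36 to 45, the shares were 64.3% of 28 (45.8 to 79.3) and 46.0% of 692 (42.3 to 49.7), whose intervals overlap. From 32 to 36 they were 68.8% of 16 (44.4 to 85.8) and 20.8% of 578 (17.7 to 24.3), whose intervals do not overlap. Below 32 they were 15.4% of 13 and 11.1% of 575. At 60 and above, all 23 collagen peaks and all 65 others were matched. Collagens held 2 of the 15 strongest peaks, 12 of the first 50 and 24 of the first 100. The mutant-named collagens sqt-3 and sqt-1 held 2 peaks each, with highest signals of 61.1 and 45.5.

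The collagen ratio depended on what it was set against. Against the family's share of protein-coding genes it was 5.95. Against other genes at equal GC content it was 1.24 (1.03 to 1.47) with GC taken over 101 bp and 0.985 (0.819 to 1.18) with GC taken over 457 bp, close to the width of a peak. The size of the excess thus depended on the window in which GC was held equal, and over 457 bp no excess was left. Copies of 31 bases found elsewhere in the nuclear genome were absent from 61.8% of collagen peaks and from 86.9% of the others. Counting only peaks without such copies, but the same coding length, gave 5.72. How reads in repeated sequence were mapped is not given in the sources used here, and its part in the result was not tested.

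**Figure D4:**
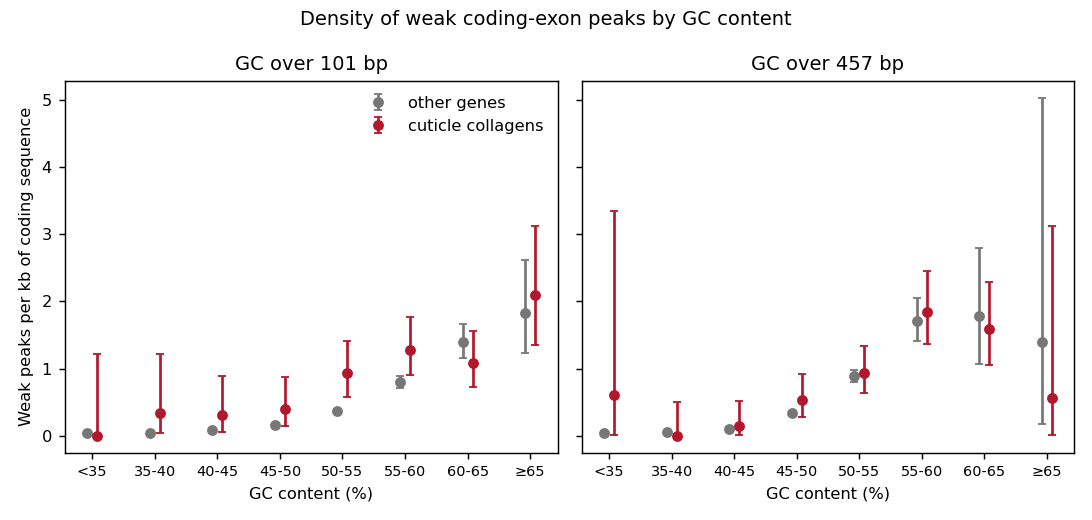
Points give weak coding-exon peaks per kb of coding sequence on the vertical axis by GC content on the horizontal axis, for cuticle collagens and all other genes, with GC over 101 bp on the left and 457 bp on the right; bars are exact Poisson intervals. Over 101 bp, density in other genes rose from 0.041 below 35% to 1.83 at 65% and above, and collagens rose less evenly to 2.10. Over 457 bp, collagens were highest at 1.85 from 55% to 60% and stood at 0.561, from 1 peak, at 65% and above. Other genes there stood at 1.79 from 60% to 65% and 1.39 above. Over 457 bp the points of both sets lie close together between 50% and 65%.

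At collagen summits, GGN and CCN codons made up 50.1% of codons, against 35.4% in the whole collagen coding sequence, 14.04% at other summits and 10.1% in other coding sequence. The 6-base word AGGACC, which spans such codons, was in 74 of 123 collagen windows, or 60.2% (51.3 to 68.4). Collagen summits lay at a median of 59.5% of the coding sequence from its start, with quartiles of 47.3% and 67.5%, while eligible collagen bases had quartiles of 35.5% and 77.6%.

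Other families had fewer peaks or ratios nearer to 1. The histone list gave 5.91 (2.01 to 17.4) from 3 peaks, in the linker histone genes his-24, hil-2 and hil-6, on 4.06 kb of eligible sequence. Against its share of genes it was 0.312, but only 14 of its 81 genes had eligible coding sequence and could be hosts. Homeobox genes gave 1.78 (1.11 to 2.84) from 17 peaks, but 1.12 by the replicate 1 list and 1.49 by the replicate 2 list. They were led by ceh-2 and by vab-7, the even-skipped homologue, at 61.6. The abu and pqn genes, many of which encode glutamine- and asparagine-rich proteins, gave 1.67 (1.09 to 2.55) from 21 peaks. Chromatin and replication genes gave 1.37 (0.992 to 1.89) from 36 peaks, led by hda-10, the remodeler gene chd-7 at 68.4 and the demethylase gene jmjd-2 at 67.0.

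Basement membrane, large matrix and muscle proteins, the list that holds vab-10, let-805 and unc-52, gave 1.28 (0.974 to 1.69) from 49 peaks. Its genes differed: vab-10 had 17 peaks on 22.4 kb of eligible coding sequence, let-805 had 6 on 13.4 kb and unc-52 had 4 on 11.5 kb, while dig-1 and unc-89, chosen after their values were seen, had 2 on 39.2 kb and 2 on 23.8 kb. Against their share of genes the same list stood at 16.5. Hedgehog-related genes gave 1.33 (0.863 to 2.05), led by the patched-family gene ptc-3 at 71.1. Sarcomere, actin and tubulin genes gave 1.36 (0.761 to 2.43) from 11 peaks, and 1.90 and 2.44 by the lists of replicates 1 and 2. They were led by the troponin T gene tnt-4 at 50.7 and act-4, an actin gene, at 50.2.

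Chemoreceptor, F-box and detoxification genes were among the families with the lowest ratios. Chemoreceptors had 41 peaks and a ratio of 0.361 (0.267 to 0.489), and F-box genes 7 peaks and 0.242 (0.117 to 0.499). Detoxification enzymes of the cytochrome P450, UGT and GST families gave 0.463 (0.259 to 0.827) and ion channels and neurotransmitter receptors 0.621 (0.407 to 0.947). Median GC of eligible coding sequence was 36.6% in chemoreceptors and 37.6% in F-box genes, against 55.4% in collagens. The major sperm proteins had no peak on 5.14 kb.

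**Figure D5:**
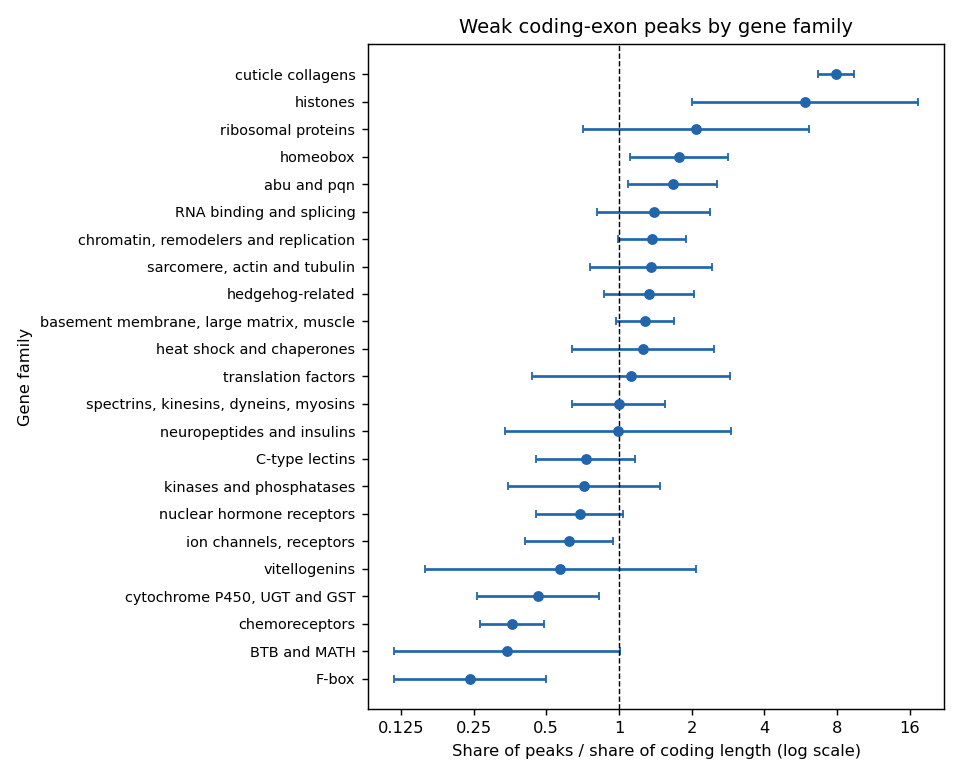
Points give each family's share of weak coding-exon peaks divided by its share of eligible coding length, on a log scale, with 95% intervals; the dashed line marks equal shares and the family without a peak is left out. Cuticle collagens lie farthest to the right at 7.92 and F-box genes farthest to the left at 0.242.

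GC content separated the peaks from coding sequence at large. Windows of 101 bp around the summits had a median GC of 48.5% (quartiles 42.6 and 54.5), against 40.6% for eligible coding bases, 44.6% for the coding sequence of the host genes and 46.5% for windows 300 bp away that were centred in a coding exon. The summit was richer in GC than the mean of its flanks in 80.9% of peaks (79.3 to 82.4). Peaks matched in both replicates had a median of 51.5%, those in 1 replicate 47.5% and those in neither 44.6%. The density of peaks rose from 0.0409 per kb below 35% GC to 0.982 per kb at 55% and above. Reproducible summits had a similar median, 49.5%, and weak intron summits 40.6%.

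Among 6-base words common at the summits, those with the highest ratios to coding windows were GC-rich. Among 683 words held by at least 5% of member windows, CGCCGC had the highest ratio to coding windows, with 6.33% of summits against 1.98% of coding windows, a ratio of 3.19, or 2.63 against the flanks. AGGACC followed at 2.90, but at 1.38 without the collagens. The lowest of the 683 was TTGAAA at 0.485. Both the 5% filter and the ratio use the member windows, so the order describes these words and tests nothing. CGCCGC passed the filter only through its share at the summits, and words rarer than 5% there could not enter. Against coding windows of equal GC and without the collagens, the highest of the 683 was TTAAAA at 1.35 while AGGACC stood at 0.589.

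The homeodomain core was searched as TAATTA or TAATGA on both strands. It was in 6.03% of summit windows (5.14 to 7.06), in 8.44% and 8.48% of the windows to either side, in 5.76% of flanks centred in a coding exon and in 7.57% of windows at all eligible coding bases. Weak intron summits held it in 11.996%. Since AT-rich words are rare in GC-rich windows, coding bases of equal GC were also used, which gave 4.07% and a ratio of 1.48. The direction of the comparison therefore changed with the baseline. Applied to each replicate list, the equal-GC ratio was 1.12 and 1.14.

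TAATTA alone was in 51 windows, 2.15% of the peaks, against 2.17% of coding windows, 4.13% of flanks and 23.0 windows at equal GC, a ratio of 2.22 (1.65 to 2.91). The replicate lists gave 1.44 and 1.90. Of the 51 windows, 45 reached beyond coding exons, and in 40 the word itself was not wholly coding. Among the 1638 peaks with a window wholly in coding exons, 6 held TAATTA against 5.51 at equal GC, a ratio of 1.09 (0.400 to 2.37). Among the 733 windows that reached outside, the ratio was 2.36 (1.72 to 3.15). The wider core, TAATTA or TAATGA, was in 61 of the 1638 wholly coding windows against 45.5 at equal GC, a ratio of 1.34 (1.03 to 1.72). The following sites, 30 bases with TAATTA in capitals on the plus strand, belong to the strongest of the 51 peaks.
F39G3.3, chrV:4734419-4734448: attttcacataaTAATTAttattgtagatg
srd-68, chrV:16901755-16901784: aaatagggtgcaTAATTAtcttgaggatgc
cdh-8, chrIV:358794-358823: gtgaaattccaaTAATTAgccgacatcatc
The srd-68 copy starts 1 bp from the summit, and its peak stood at 56.1 in the pooled list, 20.8 in replicate 1 and 28.4 in replicate 2. These matches are descriptions of letters, not sites of binding, and none of the 51 peaks was in a collagen gene.

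Position within genes was uneven. Coding length here is eligible length, outside promoter windows, which also remove the 200 bp after each transcript start. The first-exon values therefore concern only what is left of first exons. The last coding exon held 19.6% of the peaks on 14.5% of coding length, a ratio of 1.35, and the first held 4.98% on 3.06%, a ratio of 1.63. Internal exons held 74.4% on 81.9%, a ratio of 0.909. Exons of 800 to 1600 bp held 13.5% of peaks on 8.18% of length, a ratio of 1.65, and exons up to 200 bp 24.8% on 34.7%, a ratio of 0.713. Chromosome I stood highest, with 20.5% of peaks on 16.2% of coding length, and chromosome V lowest, with 15.4% on 21.8%. Chromosome X held 13.5% (12.1 to 14.9) on 15.7%.

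Few of the peaks were near a reproducible one. A reproducible summit lay within 1000 bp of 37 peaks, 1.56%, and the median distance was 22440 bp. Host genes had a reproducible promoter summit in 9.34% of cases (8.13 to 10.7), against 5.97% of all protein-coding genes and 5.60% of genes that were no host, a difference of 3.73 points (2.47 to 5.15). Hosts are longer genes, and within bands of coding length the gaps were smaller below 4 kb: 6.02% against 4.71% up to 1 kb, 7.50% against 5.57% from 1 to 2 kb, and 12.2% against 10.3% from 2 to 4 kb. Above 4 kb it was 16.4% of 214 hosts against 9.80% of 306 other genes.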

How the data were processed

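Peak lists on ce11 were used. Per the file headers, the authors called relaxed lists on each replicate and on both with a control, and derived the reproducible set by the irreproducible discovery rate. For the peak caller, aligner and filters, nothing is given in the sources used here, and the control was not analysed here. The deposited signal of each peak and the deposited −log10 q-value are the authors' own, used only to describe and rank peaks within a list. The lists give no read counts, and depth is unknown.

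Gene models came from Ensembl release 115 and sequence from RefSeq, both WBcel235. Summits were placed in the first class that applied: promoter window, coding exon, 3′ UTR, 5′ UTR, intron, intergenic. Eligible coding length excludes promoter windows and came to 18985 kb. Shares have Wilson intervals, differences Newcombe intervals and densities exact Poisson intervals. With 1 group no test over samples exists, and no p-value was computed.

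The members, families and comparisons were chosen with earlier results of these data known. The equal-GC comparisons, runs of overlapping peaks, 31-base copies, windows wholly in coding exons and settings without collagens were added after results had been seen. The homeodomain core was set against several baselines, all of which are given. Named genes are the hosts in the first 15 places by number of peaks, those of the 15 strongest peaks, the first 10 by density among genes with at least 3 peaks, ceh-2, unc-119 and up to 3 leading peaks per family. Other genes named, among them those of the reproducible summits, further collagens and hosts of TAATTA, were chosen after their values were seen. Overlap and ratio code was tested on simulated data. Computations ran in Python 3.11.15 with biopython 1.88, scipy 1.17.1, numpy 2.4.6, matplotlib 3.10.9 and pandas 2.3.3.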

Additional observations from a re-analysis of the deposited data

How the results depend on the processing

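No paired analysis was possible because there is 1 group. Leaving out a replicate by using the other's own list gave 2162 to 3091 peaks, 16.2% to 18.6% of weak summits in coding exons, 50 to 100 genes with 3 or more peaks, 5.18% to 5.55% of peaks with the core, 13.3% to 14.7% of peaks on chromosome X, and collagen ratios of 6.57 to 8.05. With overlapping peaks joined, 46 genes had 3 or more. Promoter windows of 500 and 2000 bp gave 18.4% and 13.5% of weak summits in coding exons, and reproducible promoter summits for 6.41% and 12.6% of hosts. The share matched in both replicates was 22.9% with summits within 100 bp, 34.6% with at least 50% of each peak covered, 34.8% with replicate lists of equal length, 62.5% among the 1185 peaks of higher signal and 37.5% without collagens. The core was in 2.70% of windows of 25 bp and 13.3% of windows of 100 bp to each side, against 3.35% and 16.2% at coding bases. The collagen ratio was 5.95 against share of genes, 5.72 for peaks without 31-base copies, 1.24 at equal GC over 101 bp and 0.985, below 1, at equal GC over 457 bp. Against share of genes, which also counts genes without eligible coding sequence, histones fell to 0.312 and ion channels rose to 1.03. TAATTA at equal GC went from 2.22 to 1.09 in windows wholly coding and ranged from 1.44 to 1.90 over the replicate lists. Apart from what the equal-GC and coding-window settings hold constant by construction, the cause of these shifts was not tested. Other settings of the main results kept counts within 1.5 times and other measures within their interval or SD; among single families other than collagens, 9 values moved beyond their interval. Depth, control reads and mappability could not be examined in peak lists.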
